A study of Drosophila melanogaster with 12 samples.

Results

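MSL2 males were compared with MSL2 females, which made up 6 of the 12 libraries of an RNA sequencing study of adult Drosophila melanogaster. The comparison gives the difference between the sexes when both express MSL2, a RING-finger protein that females normally do not make and that builds the male-specific lethal (MSL) complex. The libraries were taken by their labels as 3 MSL2 males and 3 MSL2 females, each labelled as a biological replicate. Control males and control females, also 3 libraries each, gave the difference between the sexes without the transgene. MSL2 females were y w; (w+) H83M2-6I/+; +/+, so that they carried 1 copy of a P-element msl-2 construct marked with mini-white and no balancer. In H83M2 constructs msl-2 is driven by the hsp83 promoter, and a single insertion, 6I, is named. Control flies of both sexes were y w; +/+; TM3/+ and thus carried the third-chromosome balancer TM3. The labels group MSL2 males with MSL2 females as flies with ectopic MSL2 but do not spell out their genotype, and whether they carry TM3 is a detail not given in the sources used here. Age, dissection and the number of flies in a library are likewise not stated.

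Male flies have 1 X chromosome and female flies have a pair. In males the MSL complex, built from the proteins MSL1, MSL2, MSL3, MOF and MLE and the noncoding RNAs roX1 and roX2, binds along the X and acetylates histone H4, and the output of X-linked genes is raised. In females the protein Sex-lethal blocks translation of msl-2 RNA, so the complex does not form. Forced expression of MSL2 in females allows the complex to assemble on both X chromosomes.

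After 1 transcript was kept per gene, the tables held 14161 genes, of which 13060 had enough reads to be tested. The MSL2 libraries held between 27729411 and 56843908 counts, and MSL2 female 2 was the smallest of them. Levels are given as CPM, the count of a gene relative to 1e6 counts of its library, scaled over X-linked and autosomal genes together. A gene was called when its adjusted p was below 0.05 in edgeR's quasi-likelihood test, with Benjamini-Hochberg adjustment over all genes tested. MSL2 female 1 stood apart: its chorion genes summed to 3.98 CPM, whereas MSL2 females 2 and 3 reached 459 and 352 CPM. Its summed vitelline membrane genes read 341 CPM against 968 and 1859 CPM, and its summed muscle genes read 102265 CPM against 64323 and 58889 CPM. MSL2 male 2 read 6489 CPM over the accessory gland genes, against 9846 and 9948 CPM in the other MSL2 males.

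Of the 2 noncoding RNAs of the MSL complex, roX1 was higher in males of MSL2 flies and roX2 did not pass the test. The noncoding RNA roX1 read 112, 128 and 116 CPM in MSL2 females 1, 2 and 3 and 354, 328 and 370.1 CPM in MSL2 males 1, 2 and 3. Every MSL2 male thus lay above every MSL2 female. The log2 difference was 1.56 ± 0.39 (SE from the spread pooled over all 12 libraries, n = 3 per group, edgeR adjusted p = 0.00382). In control flies roX1 read 6.30, 4.93 and 1.13 CPM in females and 353, 343 and 381 CPM in males, a log2 difference of 6.49. The other noncoding RNA, roX2, read 13.1, 14.1 and 9.67 CPM in MSL2 females and 12.1, 12.7 and 13.7 CPM in MSL2 males. These ranges overlapped, and the log2 difference of 0.06 ± 0.16 (SE) did not pass the test (edgeR adjusted p = 0.755). Control females read 0.263, 0.106 and 0.116 CPM of roX2 and control males 11.3, 11.9 and 11.1 CPM, a log2 difference of 6.28. Both roX RNAs differed less between the sexes of MSL2 flies than between those of control flies, by -4.93 for roX1 (edgeR adjusted p of the difference 0.00601) and by -6.21 for roX2 (edgeR adjusted p 2.84e-06).

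The RNA of msl-2 itself, which the transgene supplies, read 513, 447 and 616 CPM in MSL2 females and 576, 503 and 392 CPM in MSL2 males. The groups overlapped, and the log2 difference of -0.10 ± 0.15 (SE) did not pass the test (edgeR adjusted p = 0.569). In control flies msl-2 read 15.2, 18.8 and 18.1 CPM in females and 30.6, 32.4 and 31.9 CPM in males, so that every MSL2 library of either sex lay above every control library. The gene w, whose mini-white copy marks the construct, read 17.9, 18.3 and 19.99 CPM in MSL2 females and 26.3, 19.7 and 24.8 CPM in MSL2 males, against 0.379, 0.918 and 0.854 CPM in control females and 4.27, 3.60 and 3.54 CPM in control males. It did not pass the test between the sexes of MSL2 flies (log2 difference 0.33 ± 0.18, SE, edgeR adjusted p = 0.125) but did with DESeq2 at 0.42 (adjusted p = 0.0200), and MSL2 male 2, below MSL2 female 3, was the only male within the female range.

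Of the 8 genes of the complex and its adaptor, 1 was called higher in MSL2 males, 3 were called lower and 4 were not called. In the whole fit 70.1% of genes were called, 31.5% higher and 38.5% lower in MSL2 males. The scaffold msl-1 read 44.3, 77.7 and 82.5 CPM in MSL2 females and 25.1, 25.2 and 22.4 CPM in MSL2 males, a log2 difference of -1.49 ± 0.20 (SE, edgeR adjusted p = 3.80e-05). The females were all above the males, and MSL2 female 1 was the lowest of them. The acetyltransferase gene mof read 12.4, 15.2 and 17.04 CPM in MSL2 females and 9.23, 9.27 and 9.34 CPM in MSL2 males, a log2 difference of -0.68 ± 0.12 (SE, edgeR adjusted p = 4.32e-04), again with no overlap. The helicase gene mle was lower in males by a log2 difference of -0.22 ± 0.07 (SE, edgeR adjusted p = 0.0149), a call that was lost with DESeq2 at -0.12 (adjusted p = 0.150). The chromodomain gene msl-3 differed by -0.14 ± 0.09 (SE, edgeR adjusted p = 0.167). CG1832, which encodes the zinc-finger adaptor CLAMP, differed by -0.13 ± 0.06 (SE, edgeR adjusted p = 0.0682). With scaling to autosomal genes both were called lower, at -0.27 for msl-3 (edgeR adjusted p = 0.0142) and -0.26 for CG1832 (edgeR adjusted p = 0.00187), and likewise with upper-quartile scaling. CG1832 was also called in 6 of the 12 fits that each left out 1 library. Control males were also below control females in msl-1, by -1.98, and in mof, by -0.52 on the log2 scale. The summed vitelline membrane genes of the egg chamber were likewise lowest among females in MSL2 female 1, at 341 CPM, and stood between 37.4 and 40.5 CPM in MSL2 males. Their part in the difference of msl-1 was not tested.

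**Figure D1:**
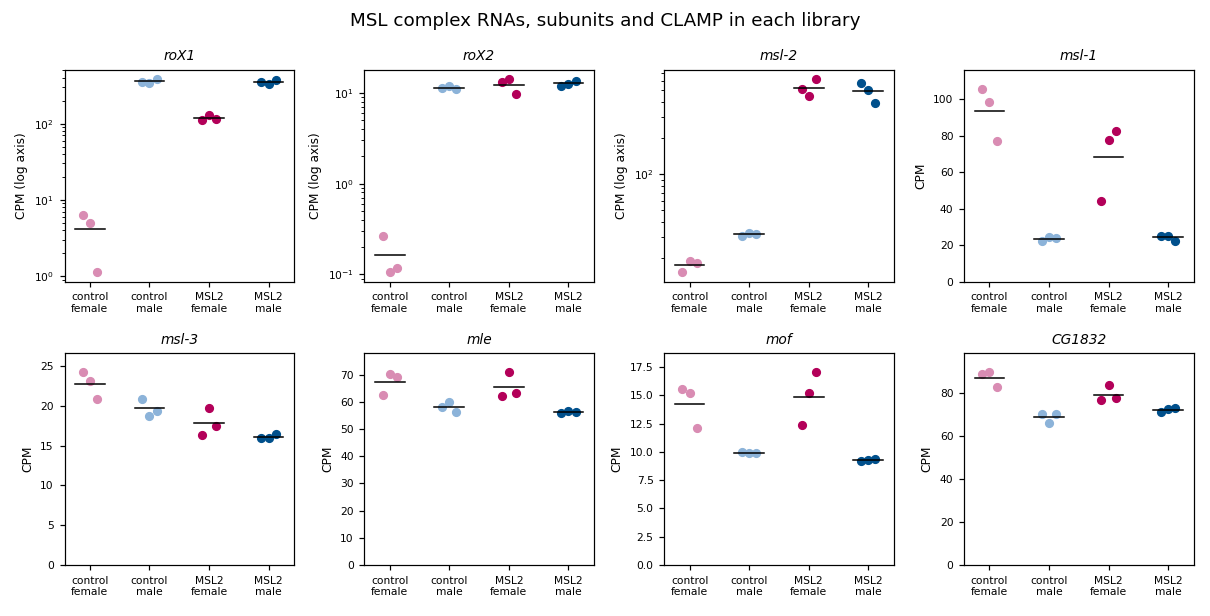
CPM of the 8 MSL complex and CLAMP genes in each of the 12 libraries (points; bars are group means, n = 3), with a log axis for roX1, roX2 and msl-2 and a linear axis from 0 for the others. MSL2 females reach 9.67 to 14.1 CPM of roX2, next to the 11.1 to 13.7 CPM of both male groups, whereas their roX1 level of 112 to 128 CPM stays under the 328 to 370 CPM of MSL2 males.

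Across the genome 9149 of 13060 genes were called, 4115 higher and 5034 lower in MSL2 males. Which side was larger depended on the scaling. DESeq2 gave 4686 higher and 4548 lower, and scaling to autosomal genes gave 3656 higher and 5759 lower. As a group the X-linked genes were shifted towards lower levels in males, although their upper quartile was still positive, at 0.11. Of 2075 X-linked genes tested, 418 were higher and 1231 were lower in MSL2 males, so that 59.3% were lower. Of 10963 autosomal genes 3675 were higher and 3803 lower, so that 34.7% were lower. The median log2 fold change of the X-linked genes was -0.58 and that of the autosomal genes -0.02, a difference of -0.56, or 1.47-fold lower. The most frequent log2 fold change, found with a smoothing width of 0.1, was -0.74 on the X and -0.16 on the autosomes, which are male to female ratios of 0.597 and 0.894. Between the control sexes the X and autosomal medians were -0.23 and 0.05, a difference of -0.28.

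The major autosomal arms had medians between -0.07 for 2R and 0.04 for 2L. On the small chromosome 4, which the protein POF covers, 9 of 82 genes were higher and 38 were lower, with a median of -0.23. All 22 Y-linked genes tested were higher in MSL2 males. The X-linked share of all counts was 18.6% ± 0.293 in MSL2 females and 12.6% ± 0.133 in MSL2 males (SD, n = 3 each), against 17.0% ± 0.254 in control females and 13.0% ± 0.116 in control males.

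**Figure D2:**
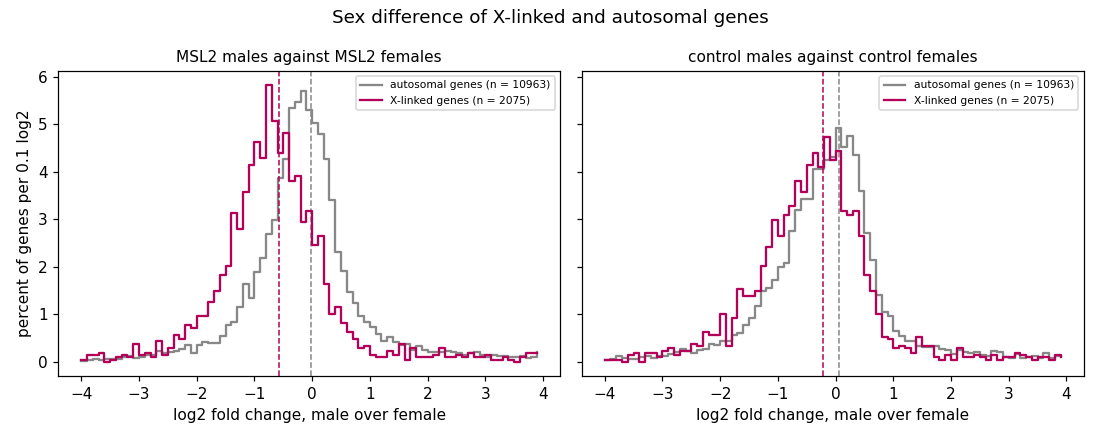
Percent of genes in each 0.1-wide step of the log2 fold change of males over females, for 2075 X-linked and 10963 autosomal genes, with dashed lines at the medians and changes beyond 4 in either direction not drawn. In MSL2 flies (left) the X-linked median lies at -0.58 and the autosomal one at -0.02, and in control flies (right) they lie at -0.23 and 0.05.

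Per library, the median of the X-linked genes less that of the autosomal genes, set against the MSL2 female mean, was 0.01, -0.01 and 0.02 in MSL2 females and -0.54, -0.57 and -0.56 in MSL2 males. The sexes were thus separated by -0.56 on the log2 scale with no overlap (two-sided exact permutation test p = 0.1, the smallest that 3 against 3 allows). In control females the same value was -0.25, -0.22 and -0.23, and in control males it was -0.55, -0.50 and -0.53. MSL2 males therefore overlapped the control males, while MSL2 females lay above every other library. The difference between the sexes was larger in MSL2 flies than in control flies by -0.27 (two-sided exact permutation of genotype within each sex, p = 0.01, with 0.005 the smallest that 400 arrangements give). The presence of TM3 differs between MSL2 females and both control groups, and the effect of the transgene and of the balancer cannot be told apart here.

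Cytosolic ribosomal protein genes, which are expressed in all cells and spread over the X and autosomes, also differed between the X and the autosomes. All 77 were lower in MSL2 males, 15 of them X-linked with a median of -1.36 and 62 autosomal with a median of -1.18. On the X the values ran from -1.77 for sta to -1.09 for RpS14b, and on the autosomes from -1.41 for RpS20 to -0.93 for RpL24. X-linked RpS6 read 2025, 2265 and 2354 CPM in MSL2 females and 739, 763 and 758 CPM in MSL2 males, a log2 difference of -1.56 ± 0.08 (SE, edgeR adjusted p = 5.08e-09). X-linked RpS5a read 1141, 1028 and 1072 CPM in MSL2 females and 451, 473 and 451 CPM in MSL2 males, a log2 difference of -1.24 against -0.78 between the control sexes. In both genes every male library lay below every female library. Within libraries the X-linked ribosomal protein genes less the autosomal ones were between -0.18 and -0.16 in MSL2 males, between -0.03 and 0.05 in MSL2 females, between -0.19 and -0.16 in control males and between -0.28 and -0.24 in control females. The family thus had its highest X-linked share in MSL2 females and its lowest in control females, with both male groups between them. Ovaries are rich in ribosomal protein RNA, and in adult flies fewer cells of a type and less RNA per cell cannot be told apart.

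**Figure D3:**
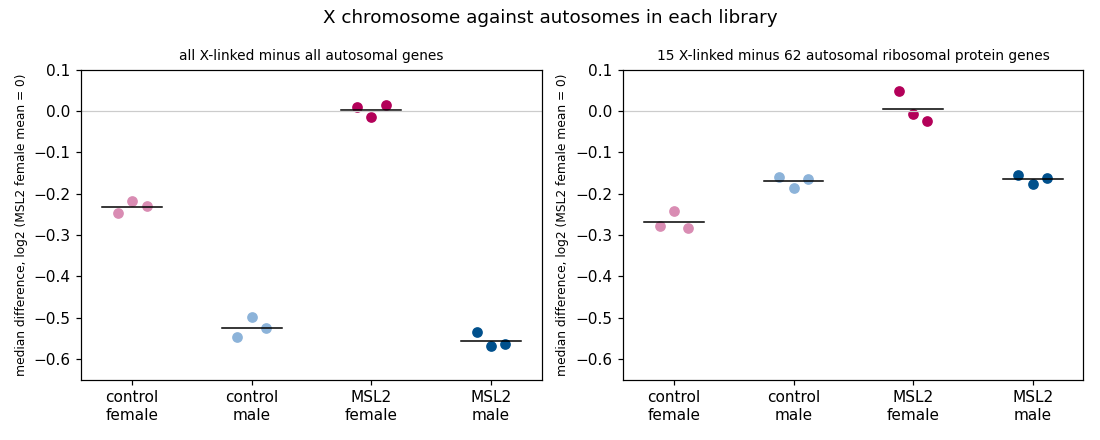
Median log2 level of X-linked genes less that of autosomal genes in each library, relative to the MSL2 female mean, for all genes tested (left) and for ribosomal protein genes (right; points are libraries, bars are group means, n = 3). On the left MSL2 females stand at about 0 and both male groups between -0.57 and -0.50. On the right control females are the lowest group, at -0.28 to -0.24.

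The X shift was smaller among genes not called between the control sexes, with X-linked and autosomal medians that differed by -0.35. This choice also sets their control medians near 0, at -0.0011 on the X and 0.05 on the autosomes. The smaller shift is therefore no separate result. Of 522 X-linked genes not called between the control sexes, 10 were higher and 255 lower in MSL2 males, with a median of -0.37. Of 3142 such autosomal genes 345 were higher and 334 lower, with a median of -0.02. Limiting the genes to a control sex difference under 0.5 on the log2 scale gave 22 higher and 446 lower of 791 X-linked genes, and 686 higher and 1061 lower of 4634 autosomal ones. Genes that control males express over 2-fold above control females were mostly still higher in MSL2 males, 355 of 367 on the X and 2391 of 2430 on the autosomes. These subsets were chosen after earlier results were known, and the control libraries that define them share no sample with the MSL2 libraries.

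Most sex differences were common to the genotypes. Of the 9149 genes called in MSL2 flies, 8183 were called in the same direction between the control sexes, which is 89.4% of the MSL2 calls and 87.1% of the 9396 control calls. The log2 fold changes of the 13060 genes correlated at 0.984 across genes, which are not independent replicates. Between the control sexes 71.9% of genes were called, 34.4% higher and 37.6% lower in males. In 22 genes the 2 comparisons were called in opposite directions, 16 of them on the X. Among the X-linked genes called only in MSL2 flies, 255 were lower and 10 were higher in males, the same genes as in the subset above. Among those called only in control flies 31 were lower and 138 were higher.

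The test of the difference itself called 165 genes, 1.26% of those tested, with 0.207% higher and 1.06% lower. Of the 138 called lower, 114 were X-linked, and of the 27 called higher 1 was X-linked. The 114 had a median log2 difference between the sexes of -0.79 in MSL2 flies and -0.17 in control flies. The count moved widely with the fit, as given under the dependence on processing, while the X shift did not. The X-linked mitochondrial ribosomal protein gene mRpL14 read 52.04, 44.5 and 44.8 CPM in MSL2 females and 16.3, 17.2 and 15.9 CPM in MSL2 males, and 26.8, 30.1 and 29.9 CPM in control females and 20.8, 22.01 and 21.1 CPM in control males. MSL2 females were the highest group, and the sex difference was larger in MSL2 flies by -1.07 (edgeR adjusted p of the difference 0.00276). The X-linked gene mRpL49, of the same kind, read 53.7, 54.2 and 51.7 CPM in MSL2 females and 18.2, 18.9 and 17.6 CPM in MSL2 males, and its sex difference was larger by -0.75 (edgeR adjusted p 0.00276). X-linked msta was higher in control males than in control females by 0.20 but lower in MSL2 males than in MSL2 females by -0.79 on the log2 scale (edgeR adjusted p of the difference 0.00509). The inaF-B gene, of a photoreceptor channel accessory locus, differed by -0.69 in MSL2 flies and -0.09 in control flies (edgeR adjusted p of the difference 0.0287), a call lost in 10 of 19 alternatives. CG1503 was the X-linked gene called higher in this test, with log2 sex differences of 4.83 in MSL2 flies and 3.37 in control flies, and its call was lost with the replicate block and without MSL2 male 1 or MSL2 male 3.

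Autosomal genes led the calls in the other direction, and several were low in MSL2 females alone. CG14087, on chromosome arm 3L, read 0.0188, 0.0355 and 0.0195 CPM in MSL2 females and 10.3, 10.8 and 11.2 CPM in MSL2 males. Control females read 8.78, 9.34 and 8.97 CPM and control males 12.6, 12.8 and 11.97 CPM, so that MSL2 females were far below every other library. The ratio of MSL2 males to MSL2 females was 475 (95% Poisson interval 162 to 2307, counting error only), and it rests on 3 counts in the females. CG31380, on 3R, read 0.225, 0.320 and 0.0782 CPM in MSL2 females and 6.59, 5.24 and 6.32 CPM in MSL2 males, against 4.67, 5.30 and 6.65 CPM in control females and 13.4, 11.7 and 14.4 CPM in control males. In CG31380 the MSL2 females were again the lowest group, and the difference between the sex differences was 3.72 (edgeR adjusted p 0.00271). CG7213, on 3L, went the other way: MSL2 females read 0.356, 0.391 and 0.489 CPM and control females 0, 0.0353 and 0.0388 CPM. Its male levels were 2.83, 2.22 and 2.88 CPM in MSL2 flies and 3.78, 3.20 and 3.62 CPM in controls. CG14118 and CG11253, also on 3L, had log2 sex differences of 1.75 and 5.51 in MSL2 flies against -0.24 and 4.20 in control flies. Of the 50 autosomal genes called in this test 45, or 90.0%, lay on the third chromosome, which holds 52.8% of the autosomal genes tested. Control flies carry the TM3 balancer of that chromosome and MSL2 females do not, and the state of MSL2 males is not stated.

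Opsins of the R8 photoreceptors differed by genotype and sex. Rh5, the blue opsin, whose gene is on 2L, shared with CG31380 the second smallest adjusted p among the genes with a higher difference. Rh5 read 9.64, 8.60 and 8.13 CPM in MSL2 females and 20.4, 19.7 and 21.1 CPM in MSL2 males, against 19.1, 21.6 and 22.4 CPM in control females and 21.3, 18.9 and 20.3 CPM in control males. MSL2 females were the only group under 10 CPM, and Rh5 was higher in MSL2 males by 1.22 ± 0.09 (SE, edgeR adjusted p = 1.91e-07). Rh6, the green opsin, read 77.7, 71.6 and 62.5 CPM in MSL2 females and 55.1, 53.02 and 55.1 CPM in MSL2 males, against 27.9, 34.1 and 34.3 CPM in control females and 50.8, 43.8 and 47.2 CPM in control males. It was lower in MSL2 males by -0.38 and higher in control males by 0.56 on the log2 scale (edgeR adjusted p of the difference 0.0152), a call of the difference that was lost in 5 of 19 alternatives. MSL2 females thus had the lowest Rh5 and the highest Rh6 of the groups.

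Female reproductive genes marked the MSL2 females as the labels say. The yolk protein gene Yp1, made in fat body and follicle cells, read 3643, 4153 and 5358 CPM in MSL2 females and 13.2, 20.2 and 12.8 CPM in MSL2 males. Every female was far above every male, with a log2 difference of -8.15 ± 0.38 (SE, edgeR adjusted p = 2.50e-09). Yp2, Yp3 and the yolk receptor gene yl, which acts in the oocyte, were lower in males by -7.91, -7.26 and -7.64, so that all 4 genes of the list were called. Between the control sexes their differences ran from -8.27 to -7.34.

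Most eggshell genes were called lower in MSL2 males but varied strongly among the females. Of 9 chorion genes 7 were lower in males and 2 were not called. Cp38, a chorion protein gene on the X, read 0.881, 212 and 138 CPM in MSL2 females and 0.626, 0.712 and 0.311 CPM in MSL2 males, and Cp36 read 0.431, 92.8 and 81.1 CPM in MSL2 females and 0.352, 0.237 and 0.136 CPM in MSL2 males. MSL2 female 1 lay close to the male range in both, while the other females were far above it. Cp15 and Cp7Fb had log2 differences of -3.21 and -1.12 and did not pass the test (edgeR adjusted p = 0.055 and 0.239). Without MSL2 female 1 all 9 were lower in males, and the median moved from -5.33 to -5.91. Of the 9 vitelline membrane genes 8 were lower and Fcp3C was not called (-0.09, edgeR adjusted p = 0.749). Vm26Aa read 96.8, 252 and 589 CPM in MSL2 females and 1.74, 2.18 and 1.11 CPM in MSL2 males, so that the females differed from one another but none overlapped the males. With MSL2 female 1 left out all 9 were lower and the median moved from -6.79 to -7.23.

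Oocyte and germ-plasm genes were lower in males in 20 of 25 cases, higher in 4 and not called in 1. The germ-plasm organizer osk read 384, 899.7 and 1022 CPM in MSL2 females and 2.27, 3.32 and 2.45 CPM in MSL2 males, the largest fall among well-expressed genes (-8.16 ± 0.47, SE, edgeR adjusted p = 1.71e-08). The anterior determinant bcd, the posterior determinant nos and the germline regulator otu were lower by -5.63, -3.34 and -6.29. The 4 called higher in males were exu, capu, spir and aret, at 2.94, 2.60, 0.94 and 0.77. The gene exu also acts in the testis, and its kept transcript read 57.1, 126 and 167 CPM in MSL2 females and 886, 867 and 941 CPM in MSL2 males. The call of aret was lost when the counts of all transcripts were added, at 0.04 (edgeR adjusted p = 0.878), and orb was not called. With MSL2 female 1 left out orb was also lower, which made 21.

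The piRNA pathway, which silences transposons in the germline, was lower in males in 17 of 19 genes. The nuclear Argonaute gene piwi read 105, 169 and 161 CPM in MSL2 females and 4.11, 4.40 and 4.45 CPM in MSL2 males (-5.07 ± 0.17, SE, edgeR adjusted p = 1.18e-10). MSL2 female 1 was the lowest female in piwi and in aub, but no female overlapped the males in either. The Argonaute gene aub and the nuclease gene zuc were lower by -3.79 and -4.22. The methyltransferase gene Hen1, which acts on small RNAs in and outside the germline, was higher by 0.73, and squ was called lower only with MSL2 female 1 left out, which made 18 of 19. X-linked fs(1)Yb, which acts in the somatic cells of the ovary, was lower by -1.88 in MSL2 males and by -0.90 in control males (edgeR adjusted p of the difference 0.0254), a call of the difference that was lost in 10 of 19 alternatives.

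Among 22 genes of egg meiosis and the early embryonic cell cycle, 15 were lower in males, 4 higher and 3 not called. The maternal tubulin gene alphaTub67C and the cyclin gene CycB were lower by -7.69 and -3.52. The 4 higher genes were ord, mei-218, twe and sub, at 4.56, 2.29, 1.85 and 1.75. The genes ord and twe also act in male meiosis. Counts of mei-218 were the same in every library as those of mei-217, whose transcript unit it shares, so the reads cannot be assigned to either. The genes polo, fzy and mei-P26 were not called.

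**Figure D4:**
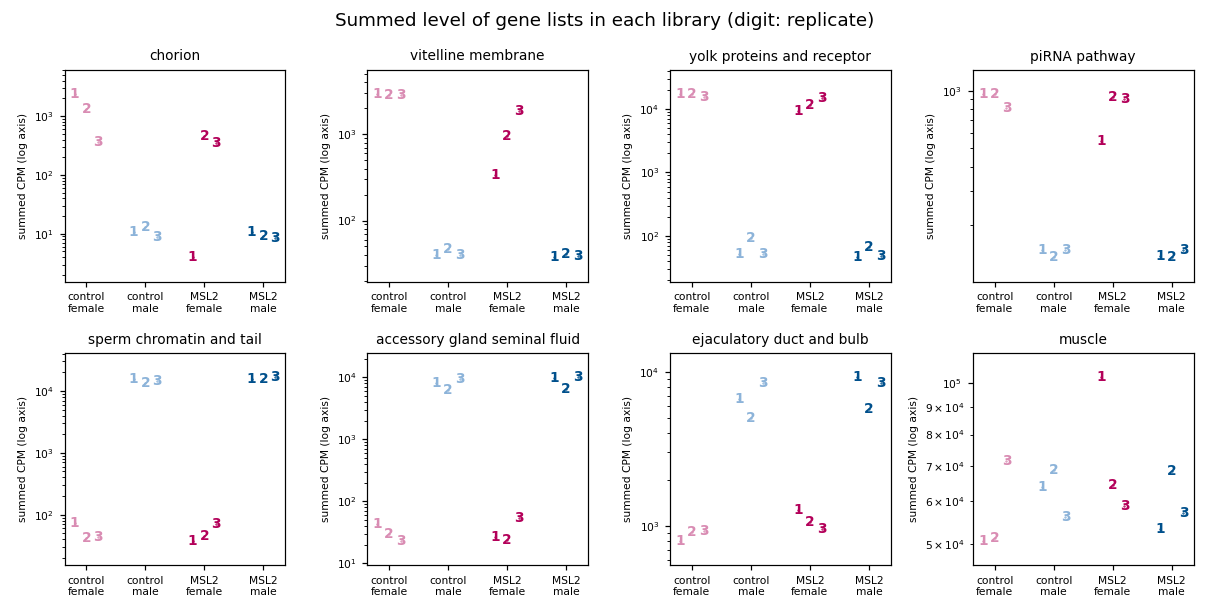
Summed CPM of 8 gene lists in each library on log axes, with the digits 1, 2 and 3 naming the replicate. MSL2 female 1 is lowest in chorion genes (3.98 CPM) and highest in muscle genes (102265 CPM), and MSL2 male 2 is the lowest MSL2 male in accessory gland genes (6489 CPM).

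Testis genes marked the MSL2 males. All 13 meiotic arrest genes, which switch on the spermatocyte programme, were higher in males, down to 0.43 for achi, and comr had 1 count in the 3 MSL2 females together against 456 in the MSL2 males. The arrest gene aly read 0.0375, 0.107 and 0.0391 CPM in MSL2 females and 7.84, 6.27 and 7.10 CPM in MSL2 males, with no overlap. All 28 sperm chromatin and sperm tail genes were higher, from 5.81 to 8.63, with a median of 8.36 against 8.17 between the control sexes. The protamine gene Mst35Bb read 0.281, 0.213 and 0.293 CPM in MSL2 females and 96.6, 92.6 and 104 CPM in MSL2 males. The testis tubulin betaTub85D read 2.25, 2.84 and 3.91 CPM in MSL2 females and 989, 975 and 1049.6 CPM in MSL2 males (8.38 ± 0.26, SE, edgeR adjusted p = 6.04e-11). All 11 Y-linked fertility genes were higher, and the dynein gene kl-3 read 10.7, 9.08 and 10.9 CPM in MSL2 males against 0.0375, 0.0355 and 0.0586 CPM in MSL2 females, who have no Y.

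Genes of the male reproductive tract were also higher, with 1 not called in the reported fit. All 35 accessory gland genes were called. Acp70A, the sex peptide that changes female behaviour after mating, read 0.113, 0.178 and 0.371 CPM in MSL2 females and 80.7, 52.4 and 86.5 CPM in MSL2 males (8.33 ± 0.40, SE, edgeR adjusted p = 3.28e-09). MSL2 male 2 was the lowest male in Acp70A but lay far above the females. Of 6 genes of the ejaculatory duct and bulb 5 were higher, among them Peb at 8.55 and the esterase gene Est-6 at 2.30, and PebIII was not called (0.34, edgeR adjusted p = 0.0756). PebIII was called higher with DESeq2 at 0.44 (adjusted p = 0.00643), with RLE scaling and without MSL2 female 1. Without MSL2 male 2 the counts of these lists stayed at 35 and 5.

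Well-expressed genes of 1 sex were read at a low level in the other. Of 385 genes with a male mean above 100 CPM and a male to female ratio above 32, 216 had a ratio between 256 and 512 and none was above 512. The median ratio was 272 and the highest 507. Genes of lower level reached larger fitted folds, and 16 were called over 1024-fold higher, with at most 4 counts in the MSL2 females together and none in 14 of them. In MSL2 females 1, 2 and 3 the sperm genes stood at a median of 0.232%, 0.270% and 0.404% of the MSL2 male mean, and the accessory gland genes at 0.205%, 0.210% and 0.473%. The Y-linked fertility genes stood at 0.129%, 0% and 0.573%. MSL2 female 3 was the highest for these lists. The yolk genes stood at 0.394%, 0.558% and 0.422% of the MSL2 female mean in MSL2 males 1, 2 and 3, and the eggshell genes Cp19 and Vm26Ac were at 0 in MSL2 male 3. The part of reads exchanged between libraries or of tissue of the other sex was not tested.

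Well-expressed genes were ranked by a rule: a call, no overlap and a mean log2 CPM of at least 5 over the MSL2 libraries of both sexes. The 10 largest rises by this rule were CG31872, CG31025, Peb, Sfp87B, CG32063, CG13340, Mst98Ca, CG9130, CG9133 and CG33340, with log2 fold changes from 8.51 to 8.55. CG9130 and CG9133 had the same counts in every library. By the same rule the largest falls were osk, Yp1, Yp2, yl, Yp3, dhd, RpS5b, CG17018, ovo and hoip, from -8.16 to -3.76. The rule left out falls larger than some of these, such as alphaTub67C at -7.69 and otu at -6.29. The maternal thioredoxin gene dhd read 157, 616 and 665 CPM in MSL2 females and 4.11, 4.55 and 2.76 CPM in MSL2 males, and MSL2 female 1 was the lowest female. By that rule the largest rises on the X were CG32628, CG15891, CG15892, mei-217 and mei-218. Without the rule, 231 of the 2075 X-linked genes tested were called over 32-fold higher in MSL2 males. CG32628 read 21.8, 18.3 and 17.4 CPM in MSL2 females and 157, 154 and 162 CPM in MSL2 males, a log2 difference of 3.04 against 3.64 in controls. CG15891 and CG15892 also had identical counts.

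Other tissues with sex-biased expression were read through smaller lists. Of 6 spermatheca genes, which serve the female sperm store, 4 were lower in males, namely CG17012, CG32277, CG18125 and CG17239, from -8.09 to -6.44. CG32833 was higher at 7.72, and CG18067 was not called. Of 8 head fat body genes 3 were higher, namely Cyp4d21, sxe2 and Obp99b, 4 were lower and to was not called. The 4 lower genes were fit and the yolk protein genes Yp1, Yp2 and Yp3, which were already counted in the yolk list. The cytochrome P450 gene Cyp4d21, known as sex-specific enzyme 1 and tied to male mating, read 1.03, 0.959 and 0.860 CPM in MSL2 females and 25.4, 14.1 and 26.3 CPM in MSL2 males (4.53 ± 0.35, SE, edgeR adjusted p = 2.93e-07). The satiety-linked gene fit was higher in females, at 7.78, 14.96 and 18.3 CPM against 4.44, 1.68 and 2.84 CPM in males. Both genes kept their sexes apart, and their log2 differences between the control sexes were 3.81 and -3.54.

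Of 8 pheromone synthesis genes 4 were higher and 2 lower in MSL2 males. These were 50% and 25% of the list, against 31.5% and 38.5% of all genes tested. The desaturase gene Fad2, also called desatF, which makes female diene hydrocarbons, read 26.3, 152 and 147 CPM in MSL2 females and 2.13, 1.66 and 0.661 CPM in MSL2 males (-6.19 ± 0.82, SE, edgeR adjusted p = 3.28e-05). MSL2 female 1 was well below the other females but above every male, and the difference was -6.65 without it. The female elongase gene eloF was lower in males by -4.09. The genes bond, CG9458 and CG9459 were higher by 0.89, 1.01 and 1.19, and Cyp4g1, the oenocyte enzyme of hydrocarbon synthesis, was higher by 0.75 (edgeR adjusted p = 0.014), a call lost without MSL2 male 1 or MSL2 male 3. The desaturase genes desat1 and desat2 were not called.

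Regulators of sex differed in both genotypes. Of 12 sex determination genes 8 were lower in MSL2 males, 2 were higher and 2 were not called, and none of the 12 was called in the test of the difference between genotypes. The switch gene Sxl read 184, 216 and 204 CPM in MSL2 females and 52.6, 49.1 and 51.98 CPM in MSL2 males, a log2 difference of -1.97 ± 0.07 (SE, edgeR adjusted p = 2.88e-10) against -1.91 between the control sexes. Its target tra was lower by -1.02, and tra2 and fru were not called. The X-linked counting gene sisA, known from the early embryo, was higher in these adult males, at 5.06, 5.13 and 6.85 CPM against 0.206, 0.213 and 0.195 CPM in females. The kept transcript of dsx was higher in males by 0.82 ± 0.11 (SE, edgeR adjusted p = 4.61e-05), but with all transcripts added the difference was -0.26 (edgeR adjusted p = 0.0709).

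The transcripts of dsx and Sxl were therefore looked at singly, a choice made after their values were seen and given with no test. These genes are spliced differently in the sexes. Of the 3 dsx transcripts in the files, the count of NM_169202 divided by that of NM_169203 was 0.597, 0.590 and 0.614 in MSL2 females and 1.79, 1.82 and 1.85 in MSL2 males. The ratio was 0.592 to 0.611 in control females and 1.76 to 1.88 in control males, so that MSL2 females lay within or next to the range of control females. Of the 21 Sxl transcripts, the count of NM_167115 divided by that of NM_167114 was 0.301, 0.271 and 0.295 in MSL2 females and 0.802, 0.858 and 0.843 in MSL2 males. Control females were between 0.281 and 0.317 and control males between 0.805 and 0.874. Reads shared by transcripts are counted for each of them, so these ratios are not shares of isoforms.

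Chromatin partners of the X were mostly lower in males. Of 18 genes of the NSL complex, which shares MOF with the MSL complex, and of related chromatin proteins, 14 were lower, 2 higher and 2 not called. Pof, which encodes the protein that covers chromosome 4, read 21.5, 23.3 and 19.8 CPM in MSL2 females and 369, 365 and 389 CPM in MSL2 males, the largest rise of the list (4.12 ± 0.10, SE, edgeR adjusted p = 8.78e-12). JIL-1, the histone H3 kinase found on the male X, was higher by 0.25 (edgeR adjusted p = 0.0215), and the call was lost with scaling to autosomal genes at 0.12 (adjusted p = 0.189). The NSL subunit gene wds read 38.2, 50.9 and 52.8 CPM in MSL2 females and 15.03, 14.5 and 14.7 CPM in MSL2 males, a log2 difference of -1.68, and the females all lay above the males. Top2 and G9a were lower by -2.53 and -1.88, while HP1c and MBD-R2 were not called. The same list had 16 lower and 2 higher between the control sexes.

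Ribosomal protein paralogs went both ways. Of 13 paralogs 7 were higher and 6 lower in males. RpL22-like, a paralog known from the testis, and RpL10Aa were higher by 7.17 and 8.10. RpS5b, the ovary paralog of RpS5a, read 331, 741 and 726 CPM in MSL2 females and 22.8, 23.1 and 24.4 CPM in MSL2 males (-4.68 ± 0.28, SE, edgeR adjusted p = 2.39e-08). Its lowest value among females was in MSL2 female 1, still above every male.

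Counts of muscle and nerve genes rested on single libraries. Of 26 muscle genes 5 were lower in MSL2 males, 1 was higher and 20 were not called, with a median of -0.24. The calls of TpnC4, up and wupA, at -0.64, -0.43 and -0.51, were lost under other settings. The number lower was 2, with a median of -0.02, without MSL2 female 1, and 11, with a median of -0.37, without MSL2 female 3. It was also 2 without MSL2 male 1, MSL2 male 3 or control female 1. The flight muscle actin gene Act88F read 13343, 5177 and 6345 CPM in MSL2 females and 4702, 7036 and 4148 CPM in MSL2 males, so that MSL2 female 1 stood apart and the rest overlapped. Its log2 difference of -0.65 was not called (edgeR adjusted p = 0.132), and it was -0.12 without MSL2 female 1 and -0.89 without MSL2 female 2, where it was called (edgeR adjusted p = 0.0499). Of 24 neuronal genes 9 were higher, 2 lower and 13 not called, with a median of 0.21. Calls higher and lower were 37.5% and 8.33% of this list, against 31.5% and 38.5% of all genes tested. The muscle list had 3.85% and 19.2%. The active zone gene brp was higher by 0.96, and X-linked Appl was lower by -0.29 (edgeR adjusted p = 0.0159). The call of Appl was lost without MSL2 female 1. The number of neuronal genes higher was 13 without MSL2 female 1, 3 without MSL2 female 3, and 4 without MSL2 male 1 or MSL2 male 3. It was 5 without MSL2 female 2, MSL2 male 2, control female 2 or control male 3. With scaling to autosomal genes 3 were higher and 4 lower, and with upper-quartile scaling 3 were higher and 2 lower. Of 24 phototransduction genes 7 were lower, 3 higher and 14 not called, and 3 were lower in a fit of the 6 MSL2 libraries. Besides Rh5, the higher genes were rdgB and ninaA, at 0.98 and 0.59.

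Gut and immune genes were more often lower than higher in MSL2 males, with 56.5% and 58.3% of their lists called lower. Among all genes tested 38.5% were lower and 31.5% higher. Of 23 lysozyme and Jonah protease genes 13 were lower and 10 were not called, and 7 were lower without MSL2 male 2, MSL2 female 2 or MSL2 female 3, each left out in turn. A fit of the 6 MSL2 libraries gave 8. MSL2 male 2 read 1937 CPM over these genes, against 4015 and 3593 CPM in the other MSL2 males. Near-identical copies in these families can share reads. LysP, of the salivary gland, was lower by -1.21. LysE did not pass the test in MSL2 flies (0.50) but was lower in control males by -1.71 (edgeR adjusted p of the difference 0.0152), a call of the difference that was lost in 3 of 19 alternatives. Of 24 antimicrobial and recognition genes 14 were lower, 3 higher and 7 not called. Drs, an antifungal peptide gene, read 99.1, 133 and 104 CPM in MSL2 females and 33.5, 44.8 and 38.7 CPM in MSL2 males, and Def, an antibacterial one, read 4.93, 43.8 and 34.9 CPM in MSL2 females and 1.97, 1.47 and 2.70 CPM in MSL2 males. The sexes did not overlap in either, although MSL2 female 1 was close to the males in Def, whose log2 difference of -3.75 was -4.25 without it. CecA1, CecA2 and PGRP-SD were higher, at 3.51, 2.41 and 0.59. X-linked PGRP-LE was lower by -0.99 in MSL2 males and by -0.46 in control males (edgeR adjusted p of the difference 0.0281), a call of the difference that was lost in 12 of 19 alternatives.

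Stress genes gave few calls. Of 22 heat shock genes 2 were higher, 4 lower and 16 not called. That was 9.09% higher and 18.2% lower, against 31.5% and 38.5% of all genes tested. Hsc70-2 was higher by 5.59, and Hsc70-1 by 0.91. Hsp83, whose promoter drives the transgene, read 2279, 2324 and 3167 CPM in MSL2 females and 1719, 1611 and 1264 CPM in MSL2 males, a log2 difference of -0.76 ± 0.16 (SE, edgeR adjusted p = 0.00119) against -1.08 between the control sexes. The females were all above the males. Of 8 Turandot genes 5 were tested, and TotA, TotB and TotX were higher by 1.07, 1.30 and 1.53. TotC and TotM were not called (-1.42 and -0.13, edgeR adjusted p = 0.129 and 0.833), and the call of TotB was lost without MSL2 male 2, MSL2 female 2, MSL2 female 3 or control male 1. Of 8 larval serum and fat body genes tobi was higher (0.78, edgeR adjusted p = 0.0348) and 7 were not called, with a median that changed sign with the scaling. The call of tobi was lost in 8 alternatives, among them scaling to autosomal genes at 0.66 (edgeR adjusted p = 0.0696) and leaving out any of the MSL2 males.

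Metabolic and clock genes were mixed. Calls higher and lower made up 31.5% and 38.5% of all genes tested. They made up 38.2% and 17.1% of the cytochrome P450 genes and 20% and 50% of the clock genes. Of 76 cytochrome P450 genes tested 29 were higher, 13 lower and 34 not called. Cyp312a1 read 3.62, 4.23 and 3.60 CPM in MSL2 females and 238, 190.2 and 229 CPM in MSL2 males, and Cyp313a1 read 47.7, 31.9 and 24.7 CPM in MSL2 females and 187, 199 and 166 CPM in MSL2 males. Males were above females in both, with log2 differences of 5.85 and 2.40. Of 10 clock genes 5 were lower, 2 higher and 3 not called. The activator Clk was higher by 1.20, and X-linked per, the repressor, was lower by -0.60, while Pdp1, sgg and tim were not called. Of 14 eye pigment genes 6 were lower, among them X-linked g, car and dor at -0.96, -0.94 and -0.77, and Hn was higher at 0.68. The lower genes were 42.9% of this list, near the share of all genes tested, and 6 of the 14 genes are X-linked. Among all X-linked genes tested 59.3% were lower.

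**Figure D5:**
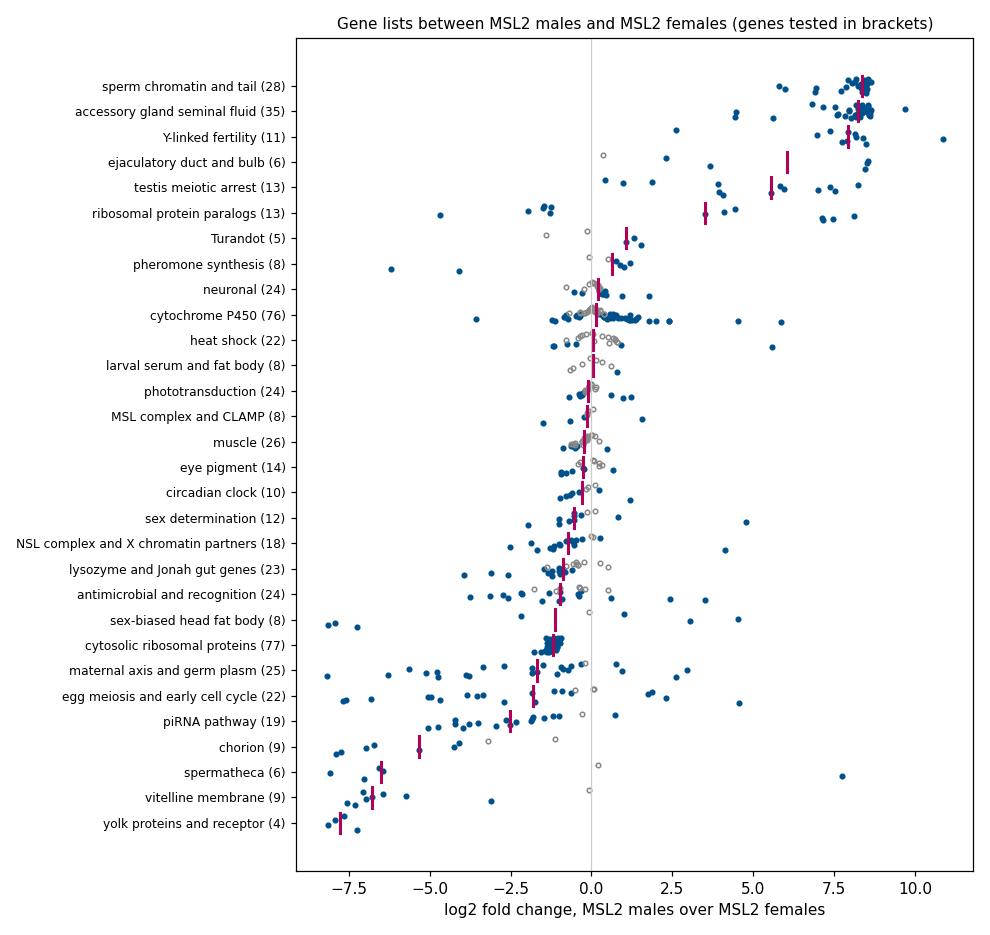
Log2 fold change of MSL2 males over MSL2 females for each tested member of the 30 gene lists, ordered by the list median (vertical bar); filled points passed the edgeR test at 0.05 and open points did not. Sperm and accessory gland genes lie near 8, yolk genes near -8 and the 77 ribosomal protein genes between -1.77 and -0.93, while muscle, nerve and photoreceptor genes lie near 0.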

How the data were processed

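RNA was sequenced from adult flies in 12 libraries of 4 groups. Total RNA was isolated with TRIZOL and made into TruSeq libraries, per the labels' protocols. The submitters' processing notes name TopHat, HTSeq and dm3 without versions. Strand use and the annotation's version were not found in those notes or the labels. The authors deposited raw counts per RefSeq transcript in 1 autosomal and 1 X-linked table. The deposited fraction columns, a count over its own table's total, were not used, because separate totals remove a shift between the tables.

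The transcript with the highest total over the 12 count columns was kept for each gene name, and 14 transcripts whose names had become dates were renamed by their identifiers. Of 14161 genes 13565 matched the RefSeq annotation of a later assembly by accession and 541 by name, which gave chromosome arms, and 4 genes of the autosomal table were placed on the X by it and left out of both sets. Antisense and overlapping genes cannot be separated without strand.

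Counts were fitted in R 4.3.3 with edgeR 4.0.16 (TMM over both tables, filterByExpr with a minimum count of 10, group means over all 12 libraries, quasi-likelihood F test, Benjamini-Hochberg threshold 0.05). The fits shared 1 estimate of spread over the groups. The SE of a fitted log2 difference was its absolute value divided by the square root of the F statistic. Each SE therefore carries the spread of all groups in the fit, control libraries included. Library totals ran from 27729411 to 79622278 counts, and 3 counts correspond to 0.0377 to 0.108 CPM. Per-library medians used log2 CPM with a prior count of 2. Replicates correlated at 0.982 to 0.997, and the labels call them biological. Same-numbered MSL2 females and males deviated from their group means with correlations of -0.22, -0.09 and 0.08, so that the numbers were not taken to pair samples. Control libraries were not checked in this way.

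The members and the 30 gene lists were chosen with earlier results of these data known. Named are the MSL genes and markers, the 10 largest rises and falls among called genes with a mean log2 CPM of at least 5 over the MSL2 libraries and no overlap, 5 each on the X, the 5 smallest adjusted p in each direction for the difference between genotypes, up to 6 members per list, and the few called or uncalled members of short lists. The transcripts of dsx and Sxl and other X-linked genes of the difference test were chosen after their values were seen. Of the list symbols closca was not matched, and 3 Turandot and 2 cytochrome P450 genes were too low to test. The edgeR steps were tested on simulated counts of MSL2 males and females over 13012 genes. Few genes were changed, none of them low in counts, and the X was shifted by -0.5 on the log2 scale. Of changed autosomal genes, a 1.5-fold change was called in 62.1% of 58, a 2-fold change in 94.7% of 57 and a 4-fold change in 100% of 55. There were 54 calls among 10754 unchanged autosomal genes. In the data 70.1% of genes were called, a setting that was not simulated, so these rates need not hold there. Alternatives were DESeq2 1.42.0, other scalings, no filter, summed transcripts, a fit of the 6 MSL2 libraries, a replicate block and leaving out each library.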

Additional observations from a re-analysis of the deposited data

Results flagged for a closer look

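The difference between the sexes was itself different between MSL2 and control flies for these values, in each case by the test of that difference (MSL2 males less MSL2 females, minus control males less control females, on the log2 scale). The per-library difference between X-linked and autosomal medians was larger in MSL2 flies by -0.27 (exact permutation p = 0.01). Of the MSL RNAs, roX1 differed by -4.93 and roX2 by -6.21, and w, which marks the construct, by -2.002.

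X-linked genes with a lower value in MSL2 flies were mRpL14 at -1.07, msta at -0.98, fs(1)Yb at -0.98, mRpL49 at -0.75, inaF-B at -0.60 and PGRP-LE at -0.53. X-linked CG1503 went the other way at 1.47. Of the opsin genes, Rh5 differed by 1.28 and Rh6 by -0.93. The third-chromosome genes CG14087, CG31380, LysE, CG14118 and CG11253 differed by 8.28, 3.72, 2.21, 1.99 and 1.31, and CG7213 by -4.12. The value of CG14087 rests on 3 counts in MSL2 females, and control females had almost no counts of CG7213, so these fitted values depend on the prior count. All gene values here passed edgeR's test with an adjusted p between 2.47e-09 and 0.0287. Of these 18 genes 9 were called in all 19 alternatives: roX1, roX2, mRpL14, mRpL49, msta, Rh5, CG14087, CG31380 and CG7213. The others lost the call in at least 1 alternative, PGRP-LE in 12, fs(1)Yb and inaF-B in 10 each, Rh6 in 5, CG1503, CG11253 and LysE in 3 each, w in 2 and CG14118 in 1. MSL2 females and control flies also differ in the TM3 balancer, which cannot be told apart from the transgene.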

How the results depend on the processing

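The count of genes called between MSL2 males and MSL2 females and the number of members called over all lists together stayed within 1.5 times their reported values under every alternative run. Counts in the muscle, neuronal, gut, phototransduction, eye pigment, heat shock and MSL complex lists moved by more in 1 direction. So did the small counts of 1 direction or both in the larval serum, clock, NSL complex and Turandot lists. The X shift held its sign under every alternative. Its median value ran from -0.58 to -0.52 on leaving out 1 library. It was -0.36 over genes with a control sex difference under 0.5 and -0.35 over genes not called between the control sexes, alternatives chosen after seeing the data. The per-library permutation p was 0.1 with each MSL2 library left out, the smallest that 3 against 2 allows. The count of genes whose sex difference differed between genotypes was unstable: 165 became 421 with DESeq2, and from 23 to 250 on leaving out 1 library, with MSL2 male 3 and MSL2 female 3 at these ends. Pairing by replicate number was looked at only between MSL2 females and MSL2 males. The replicate block, a pairing that the labels do not state, gave 10 such genes and 8799 against 9149 in the MSL2 comparison. The cause of these moves was not tested. Scaling to autosomal genes moved the median of all genes by -0.13, and the sign of the median of the larval serum and heat shock lists changed with the scaling. More genes were called higher than lower in MSL2 males with DESeq2 and with RLE scaling, and fewer with the other scalings.

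Of 163 genes named with a fold change, 134 were called, and 11 of these lost their call under some alternative: Appl, Cyp4g1, JIL-1, TotB, TpnC4, aret, dsx, mle, tobi, up and wupA. Of the 29 not called, 17 were called under some alternative. They were Act88F, CG1832, Cp15, Cp7Fb, Fcp3C, LysE, Pdp1, PebIII, TotC, desat1, fru, msl-3, orb, polo, squ, tra2 and w. The called gene dsx changed direction with summed transcripts (-0.26). The other changes of direction were in genes that did not pass the test. With DESeq2 they were MBD-R2 at 0.063 and desat2 at 0.0042. With RLE scaling they were MBD-R2 at 0.063. With scaling to autosomal genes they were HP1c at -0.081, fru at -0.032, fzy at -0.083, mei-P26 at -0.056, roX2 at -0.066 and tim at -0.012. With upper-quartile scaling they were HP1c at -0.044, fzy at -0.044, mei-P26 at -0.016 and roX2 at -0.030. With summed transcripts they were orb at 0.25 and roX2 at -0.032. In a fit of the 6 MSL2 libraries they were MBD-R2 at 0.053. On leaving out 1 library, desat2 between -0.36 and 0.16, Fcp3C between -0.38 and 0.10, fru between -0.0057 and 0.17, fzy between -0.18 and 0.27, HP1c between -0.014 and 0.093, MBD-R2 between -0.085 and 0.058, mei-P26 between -0.21 and 0.37, msl-2 between -0.27 and 0.031, orb between -0.51 and 0.021, roX2 between -0.087 and 0.17, sgg between -0.19 and 0.00038, tim between -0.17 and 0.19, to between -0.23 and 0.035 and TotM between -0.29 and 0.20 crossed 0.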
